A study of Rattus norvegicus with 47 samples.

Results

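This account compares the kidney cortex of rats given lithium together with amiloride (LiAM, n = 5 libraries) with that of rats given lithium alone (Li, n = 6), both for 14 days. These 11 of the 47 RNA-Seq libraries of the series were chosen by their treatment and duration labels. LiAM library 2, described below, has the same labels but was left out for its adipose transcripts. The animals were male Wistar rats. LiAM rats had lithium carbonate in the chow (60 mM in the labels) and 0.2 mM amiloride in the drinking water from the first day, Li rats had the same chow without amiloride, and control rats had plain chow (n = 6). The methods give a lower lithium dose for the first week. They also give a salt block to all rats on lithium, with or without amiloride, and state none for the controls. No group received amiloride without lithium, and no gene was targeted that could check the labels. A sixth LiAM library, number 2, was left out by the study, and its adipose transcripts summed to 2466 CPM (read counts scaled per library to the same total) against 72.1 to 170 CPM in the other 17 libraries of 14 days, all 18 scaled together. The 28-day study (5 LiAM, 6 Li and 6 control libraries from other rats) had the same treatments and serves as a second set of animals.

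Lithium enters the principal cells of the connecting tubule and collecting duct through the epithelial sodium channel (ENaC), which amiloride blocks from the lumen. Principal cells take up sodium through ENaC under the control of aldosterone, and water through aquaporin 2, which vasopressin moves to the apical membrane. Lithium treatment is known for loss of aquaporin 2 and of urine concentration, for dilated distal tubules and, over months, for interstitial fibrosis.

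Total counts were 14017687 to 15618395 in the LiAM libraries, 12553282 to 15495910 in the Li libraries and 10399818 to 13621790 in the control libraries. Mitochondrial transcripts took 14.7 to 18.9% of the counts in LiAM, 13.8 to 17.9% in Li and 13.9 to 21.2% in control. Markers of the proximal tubule, the main epithelium of the cortex, summed to 25772 to 27861 CPM in LiAM, 25133 to 27321 CPM in Li and 35268 to 37792 CPM in control libraries, so all groups carried the transcripts of the labelled tissue. On the first principal component of the 500 most variable genes, which held 34.9% of the variation, LiAM libraries lay between 5.15 and 15.5 and Li libraries between -11.9 and -4.02, without overlap.

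Of 14179 genes tested, 311 (2.19%) differed between LiAM and Li rats. Of these, 112 were higher in LiAM (0.790%) and 199 were lower (1.40%). A gene counted as changed when its adjusted p (edgeR, Benjamini-Hochberg) was below 0.05 and its change was 1.41-fold or more, which is 0.5 on the log2 scale. The change was at least 2-fold for 43 of the higher and 87 of the lower genes. In 78 of the higher and 129 of the lower genes every LiAM library lay outside the range of the Li libraries, which was so for 1.58% (higher) and 1.89% (lower) of all genes tested. Without LiAM 5, the counts were 76 and 129. DESeq2, run as another test, called 154 genes higher and 299 lower. For scale, LiAM differed from control in 715 genes higher (5.04%) and 464 lower (3.27%), and Li from control in 1204 higher (8.49%) and 514 lower (3.63%).

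**Figure D1:**
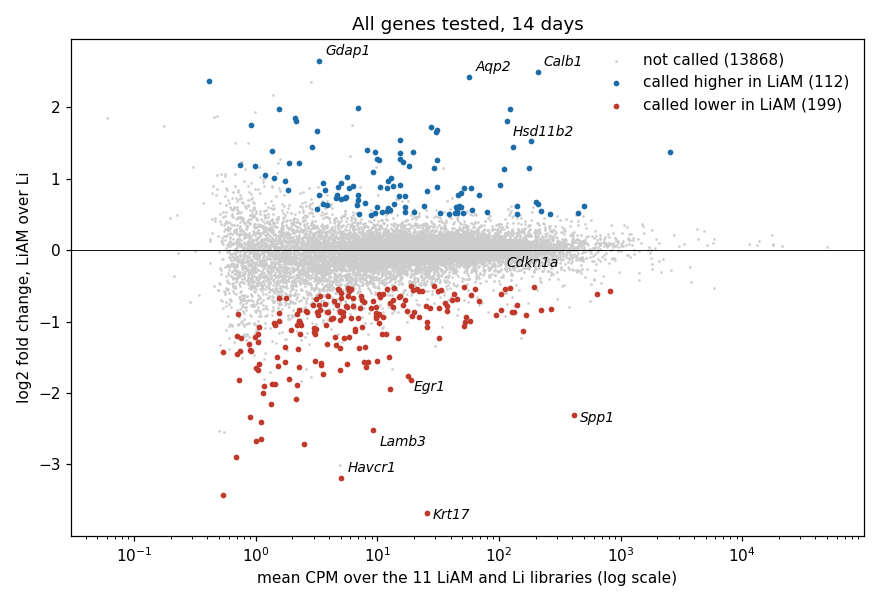
Log2 fold change of LiAM over Li (vertical axis) against the mean level over the 11 libraries in CPM (horizontal axis, log scale), 1 point per gene tested. The 112 genes called higher (blue) and 199 called lower (red) lie on both sides of 0 at all levels, and Aqp2, Calb1, Krt17 and Spp1 are among those far from it.

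Aqp2, Avpr2, Aqp3 and Aqp4 rose among 12 genes of water transport and vasopressin, led by the water channel of the principal cell. Aqp2 (ENSRNOG00000054378) had 107, 147, 70.6, 99.2 and 88.1 CPM in the LiAM libraries, 11.1 to 26.7 (median 19.6) CPM in Li and 162 to 219 (median 180.1) CPM in control libraries. LiAM and Li did not overlap, and every LiAM library stayed below every control library. The log2 fold change of LiAM over Li was 2.42 ± 0.20 (SE, adjusted p = 1.56e-06), which is 5.36-fold. Avpr2, the vasopressin receptor that drives Aqp2 transcription and trafficking, had 12.2, 13.8, 9.88, 12.8 and 13.9 CPM in LiAM, 3.47 to 6.45 (median 4.64) CPM in Li and 9.73 to 20.3 (median 15.6) CPM in control libraries (LiAM over Li 1.40 ± 0.18, adjusted p = 0.000225). Here the LiAM libraries lay within the range of the controls.

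Both basolateral water channels rose, but they differed in how they stood against control rats. Aqp3, which lets water leave the principal cell, ranged over 54 to 91.8 CPM in LiAM, 25.8 to 50.4 CPM in Li and 79.1 to 106 CPM in control libraries, a log2 fold change of 0.87 ± 0.15 (adjusted p = 0.00332). Aqp4, also a basolateral water channel, had 216, 252, 151, 215 and 202 CPM in LiAM, 42.5 to 65.3 (median 48.8) CPM in Li and 6.09 to 14.5 (median 9.43) CPM in control libraries. It rose 3.95-fold in LiAM over Li (log2 1.98 ± 0.16, adjusted p = 1.41e-06), and the 3 groups did not overlap, with control lowest. Unlike Aqp2, Aqp4 was thus furthest from control in the LiAM rats, with log2 fold changes of 4.44 for LiAM over control and 2.46 for Li over control.

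All 3 subunits of ENaC, the channel that amiloride blocks, rose. Scnn1a, the alpha subunit, had 80.6, 93.6, 89.8, 101 and 83.1 CPM in LiAM, 33.2 to 77.7 (median 50.4) CPM in Li and 38.8 to 59.4 (median 54.5) CPM in control libraries (LiAM over Li 0.78 ± 0.15, adjusted p = 0.00706). Scnn1b, the beta subunit, had 40.6, 47.9, 39.3, 72.5 and 49.9 CPM in LiAM, 11.7 to 21.3 (median 14.2) CPM in Li and 27.4 to 53.1 (median 47.3) CPM in control libraries (1.69 ± 0.19, adjusted p = 5.92e-05). For Scnn1g, the gamma subunit, the values were 35.6, 42.3, 37.9, 62.9 and 43.6 CPM in LiAM, 7.99 to 20 (median 12.8) CPM in Li and 22.1 to 40.8 (median 35.5) CPM in control libraries (1.73 ± 0.20, adjusted p = 7.02e-05). Beta and gamma overlapped control in LiAM and were below every control library in Li. Alpha was above every control library in LiAM and overlapped the controls in Li. LiAM 5 was the highest library for all 3 subunits.

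Some genes that act with ENaC under aldosterone rose as well. Hsd11b2, which keeps cortisol and corticosterone off the mineralocorticoid receptor, had 178, 186, 184, 241 and 162 CPM in LiAM, 43.4 to 67.6 (median 53.3) CPM in Li and 162 to 285 (median 242) CPM in control libraries. Its log2 fold change was 1.81 ± 0.14 (adjusted p = 9.29e-07), and Li was below every control library while LiAM overlapped them. Sgk1, the aldosterone-induced kinase that keeps ENaC at the membrane, had 430.0, 208, 190.1, 202 and 232 CPM in LiAM, 87.3 to 150.3 (median 106) CPM in Li and 126 to 356 (median 183) CPM in control libraries (1.15 ± 0.25, adjusted p = 0.0125). LiAM 1 was far above the other LiAM libraries, and none overlapped Li. Fxyd4, a regulator of the sodium pump, ranged over 17.1 to 25.9 CPM in LiAM and 5.95 to 15.2 CPM in Li (1.28 ± 0.20, adjusted p = 0.00105).

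Lists of genes were read against 8862 tested genes that carry a symbol in the deposited tables, of which 1.21% were called higher and 2.17% lower. Symbols were deposited only for genes with an adjusted p under 0.05 in at least 1 of the comparisons of the study, at any fold change, so the listed genes are a selected set. Of 12 principal cell markers tested, 8 rose and none fell, with a median log2 fold change of 1.34 against -0.0038 over genes with a symbol. The 4 other members did not pass, for example the potassium channel gene Kcnj1 (0.58 ± 0.17, adjusted p = 0.0712) and the transcription factor Gata3 (0.41 ± 0.12, adjusted p = 0.0573). The summed level of the list was 1236 to 1685 CPM in LiAM, 655 to 1036 CPM in Li and 854 to 1317 CPM in control libraries. In whole cortex, more cells of a type and more RNA per cell cannot be told apart. Of 20 genes of aldosterone-regulated sodium reabsorption, 6 rose and none fell (median 0.26), and of 12 genes of water transport and vasopressin, 4 rose and none fell (median 0.13). The lists share members. Scnn1b, Scnn1g, Hsd11b2 and Fxyd4 of the former and all 4 of the latter are among the principal cell genes that rose. The summed levels of the water list overlapped, at 2175 to 2663 CPM in LiAM and 2036 to 2762 CPM in Li.

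The neighbouring segments, the distal convoluted and connecting tubule, showed the same direction. Calb1, the calcium buffer of these cells, had 222, 342, 344, 678 and 299 CPM in LiAM, 34.7 to 117 (median 60.1) CPM in Li and 233 to 601 (median 509) CPM in control libraries (2.50 ± 0.31, adjusted p = 0.000121). Slc8a1, the sodium-calcium exchanger by which calcium leaves the cell, had 42.9, 51.1, 36.9, 63.3 and 47.8 CPM in LiAM, 9.81 to 21.7 (median 15.2) CPM in Li and 12.1 to 77 (median 60.9) CPM in control libraries (1.65 ± 0.32, adjusted p = 0.00685). Neither gene overlapped between LiAM and Li, and both had 1 control library (number 2) far below the other controls. Klk1, the tissue kallikrein made in the connecting tubule, had 162, 175, 261, 267 and 139 CPM in LiAM, 38.8 to 104 (median 67.9) CPM in Li and 317 to 509 (median 371) CPM in control libraries (1.45 ± 0.22, adjusted p = 0.000812). Rats carry close copies of Klk1, whose reads the counting could have divided, so the level of this gene is uncertain.

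In all, 6 of 10 tested genes of these segments rose and none fell. The others were Klhl3, whose product marks WNK kinases for degradation (1.09 ± 0.29, adjusted p = 0.0436), and Wnk1, a kinase that governs the thiazide-sensitive cotransporter (0.62 ± 0.15, adjusted p = 0.0295). Trpm6, the channel for magnesium uptake, rose as well (0.51 ± 0.13, adjusted p = 0.0383). The call of Klhl3 was lost in 12 of the 17 fits that left out 1 library (adjusted p 0.0503 to 0.156) and that of Trpm6 in 7 (adjusted p 0.0535 to 0.0953). That of Wnk1 was lost without Li 3, 5 or 6 or LiAM 3 or 5 (adjusted p 0.0505 to 0.11). Only 3 of the 10 members rose without Li 3, Li 6, LiAM 3 or LiAM 5.

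In the list of calcium, magnesium and vitamin D genes, 5 of 14 rose and 1 fell. Of the 5, Calb1, Slc8a1 and Trpm6 are also in the list of the distal convoluted and connecting tubule. Vdr, the vitamin D receptor, ranged over 196 to 304 CPM in LiAM and 131 to 192 CPM in Li without overlap (0.68 ± 0.11, adjusted p = 0.00158). Atp2b4, a plasma membrane calcium pump, had 137, 140.0, 117, 169 and 123 CPM in LiAM, 56.9 to 85.8 (median 71.3) CPM in Li and 54.5 to 81.9 (median 74.7) CPM in control libraries (0.91 ± 0.13, adjusted p = 0.000385), so that only LiAM stood apart. The member that fell was Cyp27b1, the enzyme that makes active vitamin D. Cyp27b1 had 3.35, 9, 7.41, 9.55 and 10.4 CPM in LiAM, 17.4 to 51 (median 25.1) CPM in Li and 2.69 to 6.04 (median 5.05) CPM in control libraries, a log2 fold change of -1.82 ± 0.30 (adjusted p = 0.00218). Of 8 potassium channel genes, 2 rose and none fell. Kcnq1 had 53.5 to 64 CPM in LiAM and 28.3 to 41.2 CPM in Li (0.62 ± 0.11, adjusted p = 0.00371). Its partner subunit Kcne1 was low, at 0.349 to 1.37 CPM in LiAM, 0 to 0.258 CPM in Li and 2.54 to 7.07 CPM in control libraries (2.38 ± 0.51, adjusted p = 0.0132). Without LiAM 5, Kcne1 had an adjusted p of 0.0514.

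**Figure D2:**
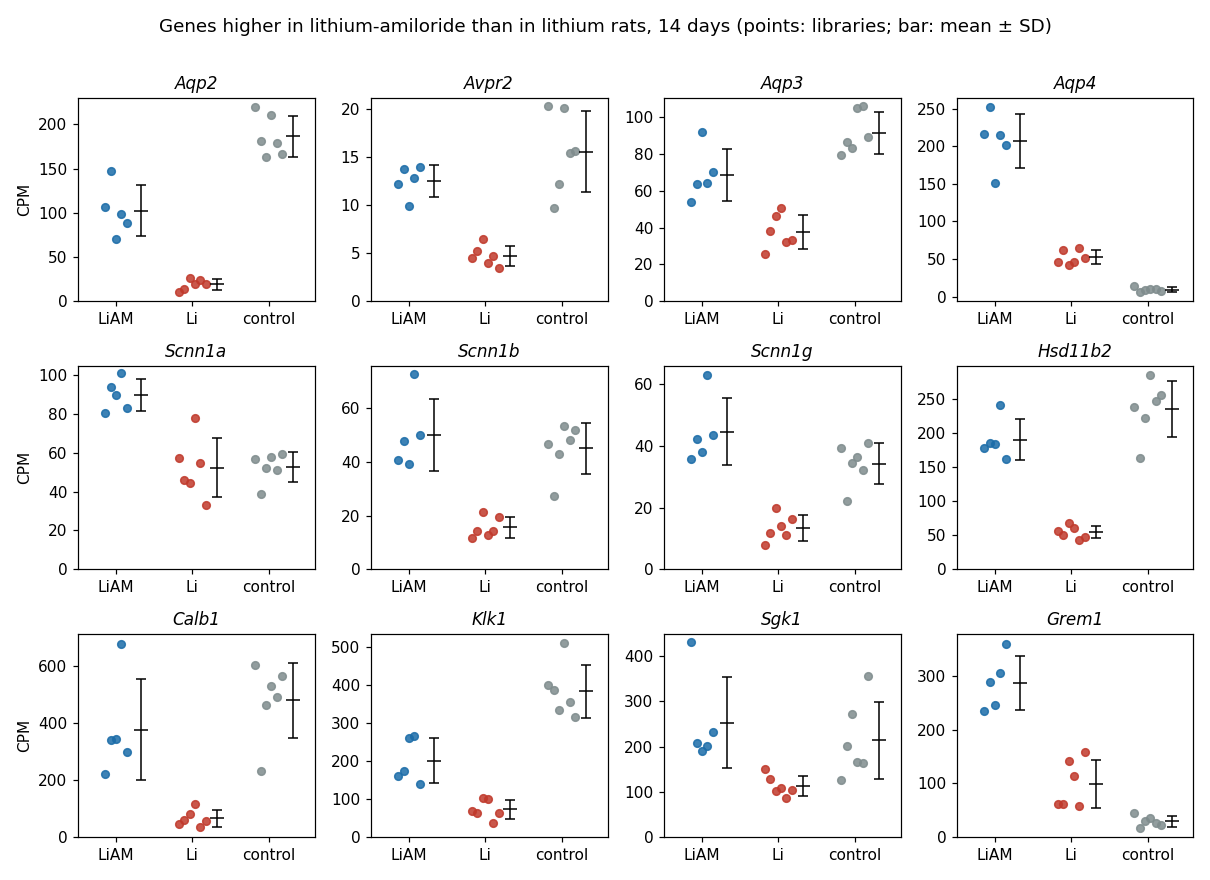
Levels in CPM (vertical axes, linear) of 12 genes that rose in LiAM over Li at 14 days, 1 point per library for LiAM (blue), Li (red) and control (grey), with the mean and SD beside them. Aqp2 lies between 70.6 and 147 CPM in LiAM and between 11.1 and 26.7 CPM in Li, whereas Aqp4 and Grem1 are lowest in control libraries.

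Several of the genes that rose most were not high in control rats. Grem1, a secreted antagonist of bone morphogenetic proteins (BMPs), had 235, 289, 246, 306 and 361 CPM in LiAM, 58.4 to 158 (median 87.9) CPM in Li and 16.6 to 44.3 (median 27.5) CPM in control libraries (1.54 ± 0.27, adjusted p = 0.00278). The 3 groups did not overlap and LiAM was the highest. Gdap1, a protein of the outer mitochondrial membrane, had 6.5, 6.72, 6.08, 7.39 and 3.88 CPM in LiAM, 0.425 to 1.6 (median 0.971) CPM in Li and 0.205 to 0.846 (median 0.49) CPM in control libraries. Its 6.25-fold difference (log2 2.64 ± 0.26, adjusted p = 1.2e-05) was the largest of the 15 higher genes named by rank. Atp12a, the colonic type of H+/K+-ATPase, ranged over 3.74 to 5.94 CPM in LiAM, 0.425 to 3.35 CPM in Li and 0.227 to 1.02 CPM in control libraries (1.67 ± 0.35, adjusted p = 0.0103). Slc9a4, a sodium-proton exchanger, ranged over 18.2 to 32.7 CPM in LiAM, 4.61 to 11.4 CPM in Li and 3.81 to 7.86 CPM in control libraries (1.54 ± 0.21, adjusted p = 0.000361). Lrrc31 (1.99 ± 0.20, adjusted p = 1.69e-05) and Fam3d (1.98 ± 0.27, adjusted p = 0.000361) were also among the 15. Atp12a lost its call with LiAM 2 added (adjusted p = 0.0847). Ptgs2, the inducible cyclooxygenase that the macula densa expresses, ranged over 14.2 to 31.3 CPM in LiAM, 6.16 to 15.1 CPM in Li and 5.04 to 11.4 CPM in control libraries (1.23 ± 0.25, adjusted p = 0.00817). It rose although LiAM 4 overlapped Li 1.

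On the lower side, several of the largest changes were in epithelial genes that control libraries held at low levels. Krt17 (ENSRNOG00000026371), a keratin of stressed and stratified epithelia, had 5.45, 1.65, 2.4, 1.37 and 6.18 CPM in LiAM and 25.7 to 69.4 (median 40.6) CPM in Li libraries, and was at 0 in 5 of the 6 control libraries. It was 12.8-fold lower in LiAM (log2 -3.68 ± 0.33, adjusted p = 4.01e-06), and LiAM still exceeded every control. Lamb3, a chain of an epithelial laminin of the basement membrane, had 4.05, 2.03, 1.47, 1.7 and 3.69 CPM in LiAM, 9.25 to 22.4 (median 12.6) CPM in Li and 0.922 to 2.3 (median 1.55) CPM in control libraries (-2.52 ± 0.29, adjusted p = 6.77e-05). Lamb3 in LiAM overlapped the controls. Sfn, the epithelial 14-3-3 sigma protein, ranged over 0.634 to 1.05 CPM in LiAM and 2.21 to 4.51 CPM in Li (-2.09 ± 0.25, adjusted p = 9.23e-05). Epgn, a ligand of the EGF receptor, ranged over 0 to 0.489 CPM in LiAM and 0.467 to 1.56 CPM in Li, with no read in any control (-2.89 ± 0.57, adjusted p = 0.0129). Epgn fell below the count filter without Li 1, 2, 4, 5 or 6 and with LiAM 2 added. In all, 5 of 12 tested genes of keratins and stratified epithelium fell and none rose. Krt7, a keratin of simple epithelium, did not pass (0.06 ± 0.08, adjusted p = 0.784).

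Of 17 tested genes of tubular injury, 7 fell and none rose. Havcr1, which encodes the injury marker KIM-1 of the proximal tubule, had 0.979, 0.951, 0.467, 0.458 and 1.78 CPM in LiAM, 1.36 to 18.8 (median 6.77) CPM in Li and 0.756 to 1.23 (median 0.98) CPM in control libraries (-3.19 ± 0.52, adjusted p = 0.0016). Li 1 overlapped the LiAM libraries, and the Li values spread more than 10-fold. Spp1, encoding osteopontin, had 121, 189.9, 50.5, 108 and 186 CPM in LiAM, 339.6 to 1172 (median 629) CPM in Li and 126 to 294 (median 223) CPM in control libraries (-2.31 ± 0.33, adjusted p = 0.000524). Lcn2, the iron-binding injury marker NGAL, had 3.91, 3.61, 3, 2.81 and 5.54 CPM in LiAM, 5.07 to 15.7 (median 11.1) CPM in Li and 2.6 to 3.64 (median 3.06) CPM in control libraries (-1.56 ± 0.24, adjusted p = 0.000821). LiAM libraries overlapped the controls for all 3 genes, and for Spp1 3 of them lay below every control. The other members that fell were Timp1, an inhibitor of metalloproteinases (-1.02 ± 0.14, adjusted p = 0.000385), and Clu, a secreted chaperone (-0.87 ± 0.18, adjusted p = 0.0102). So did Vim, an intermediate filament protein (-0.62 ± 0.10, adjusted p = 0.00121), and Cd44, a receptor for hyaluronan (-0.57 ± 0.13, adjusted p = 0.0187). Cd44 lost its call without LiAM 4, 5 or 6 (adjusted p 0.0508 to 0.0594) and Vim with LiAM 2 added (adjusted p = 0.525). The keratins Krt8 (-0.21 ± 0.10, adjusted p = 0.242) and Krt19 (-0.08 ± 0.15, adjusted p = 0.838) did not pass.

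Immediate-early genes, whose products are transcription factors and phosphatases made soon after a stimulus, fell in 9 of 22 tested cases and rose in none. The median log2 fold change of the list was -0.44. Egr1 had 9.44, 8.24, 6.01, 7.39 and 7.51 CPM in LiAM, 14.4 to 42.1 (median 25.9) CPM in Li and 6.26 to 8.84 (median 8.01) CPM in control libraries (-1.76 ± 0.21, adjusted p = 9.25e-05). For Egr2 the values were 0.699, 0.317, 0.868, 0.589 and 0.573 CPM in LiAM, 1.69 to 5.99 (median 3.97) CPM in Li and 0.307 to 0.68 (median 0.434) CPM in control libraries (-2.71 ± 0.32, adjusted p = 9.23e-05). Both genes separated LiAM from Li, and LiAM overlapped control. Fos, which pairs with Jun proteins in the AP-1 factor, had 3.91, 3.42, 3.81, 4.84 and 3.63 CPM in LiAM, 4.87 to 13.6 (median 7.79) CPM in Li and 0.378 to 1.02 CPM in control libraries (-1.14 ± 0.21, adjusted p = 0.00552). Unlike the Egr genes, Fos stayed above every control library in LiAM. In the edgeR fit of the 14-day and 28-day studies together, its 14-day change did not pass (-1.13 ± 0.415, adjusted p = 0.143).

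Further AP-1 genes that fell were Fosb (-1.62 ± 0.38, adjusted p = 0.0227) and Junb (-0.78 ± 0.13, adjusted p = 0.00211). The transcription factors Myc (-0.92 ± 0.20, adjusted p = 0.0141), Atf3 (-0.90 ± 0.22, adjusted p = 0.0256) and Maff (-0.88 ± 0.16, adjusted p = 0.00418) fell as well. Dusp5, a phosphatase of ERK kinases, fell (-0.85 ± 0.22, adjusted p = 0.0397) but lost its call in 8 of the 17 fits without 1 library (adjusted p 0.0502 to 0.122). The call of Atf3, a stress-induced factor, was lost without Li 5 or 6 or LiAM 1, 3 or 4 (adjusted p 0.0505 to 0.0721), and that of Fosb without LiAM 4 or LiAM 5 (adjusted p 0.056 to 0.0688). The promoters of Egr1, Egr2 and Dusp5 are printed because these 3 of the 6 called immediate-early genes with an entry in the RefSeq promoter table hold a CArG box, the binding site of serum response factor. The box is shown in capitals, was searched on both strands and occurred in 451 of 27457 promoters of the table (1.64%). It occurred in 5 of 16 immediate-early genes tested with an entry (31.2%), called or not. Among all called lower genes with an entry it occurred in 4 of 143 (2.8%), and among called higher genes in 1 of 73 (1.37%). In Egr1 boxes began 105 and 83 bases before the start site, in Egr2 83 bases before it and in Dusp5 82 and 72 bases before it. Each sequence is the 250 bases before the start, 5′ to 3′ on the gene's strand, in the RefSeq assembly GRCr8 (chr18:26736828-26737077, plus strand for Egr1, chr20:21054442-21054691, minus strand for Egr2, chr1:262543524-262543773, plus strand for Dusp5).
Egr1: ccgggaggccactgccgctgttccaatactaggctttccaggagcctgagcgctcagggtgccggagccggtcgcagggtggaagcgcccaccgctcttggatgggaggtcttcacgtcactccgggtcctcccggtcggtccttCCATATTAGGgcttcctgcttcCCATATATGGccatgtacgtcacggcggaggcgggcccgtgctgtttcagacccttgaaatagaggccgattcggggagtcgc
Egr2: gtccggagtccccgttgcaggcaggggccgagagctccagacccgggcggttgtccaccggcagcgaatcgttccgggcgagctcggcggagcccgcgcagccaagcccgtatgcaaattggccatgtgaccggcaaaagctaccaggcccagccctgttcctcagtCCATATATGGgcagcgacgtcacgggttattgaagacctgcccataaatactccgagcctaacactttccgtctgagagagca
Dusp5: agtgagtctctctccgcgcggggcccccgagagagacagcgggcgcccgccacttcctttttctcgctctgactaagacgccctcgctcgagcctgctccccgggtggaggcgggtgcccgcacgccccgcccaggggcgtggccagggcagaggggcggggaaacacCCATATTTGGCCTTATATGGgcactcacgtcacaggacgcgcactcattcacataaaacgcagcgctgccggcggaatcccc

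Other motifs were searched on both strands of the 300 bases around the start site (250 before and 50 after), and a promoter with several or overlapping matches was counted once. The AP-1 site TGANTCA occurred in 18 of 143 promoters of called lower genes (12.6%), in 7 of 73 of called higher genes (9.59%) and in 5.47% of 6893 genes tested with a symbol and a promoter. The NF-kB consensus occurred in 28 of 143 promoters of called lower genes (19.6%), in 6 of 73 of called higher genes (8.22%) and in 10.3% of the genes tested. The cyclic AMP response element TGACGTCA occurred in 6 of 143 (4.2%) of the lower, in 0 of 73 of the higher and in 2.8% of the genes tested. Among the genes described here, the AP-1 site was found in Scnn1g, Fam3d and Kcne1 of the higher genes and in Sfn, Atg9b, Mmp12, Fgb, Fas and Osmr of the lower genes. The NF-kB consensus was found in Aqp4 and Atp12a of the higher genes and in Lamb3, Lcn2, Socs3, Bcl3, Pmaip1, Vim and others of the lower genes. It was also found in Nfkb2, Tgfb1 and Ccn2, which were not called. These are matches of letters, not sites shown to be bound, and the shares were not tested.

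Several genes of cytokine receptor signalling and of the acute phase fell. Socs3, the feedback inhibitor induced by STAT3, had 2.8, 2.85, 1.8, 1.5 and 4.14 CPM in LiAM, 3.83 to 9.64 (median 6.94) CPM in Li and 0.845 to 1.95 (median 1.13) CPM in control libraries (-1.37 ± 0.26, adjusted p = 0.00599). Osmr, the receptor for oncostatin M, ranged over 8.75 to 15.4 CPM in LiAM and 15.2 to 24.7 CPM in Li (-0.70 ± 0.15, adjusted p = 0.0129), and LiAM 6 overlapped Li 1. With Junb and Bcl3, a nuclear cofactor of NF-kB (-1.17 ± 0.18, adjusted p = 0.000815), they make up the 4 of 12 oncostatin and STAT3 genes that fell. Bcl3 had an adjusted p of 0.0616 with LiAM 2 added. Of 17 complement and acute phase genes, 7 fell and none rose, and all 17 had negative log2 fold changes. C4b, complement component 4, had 5.1, 6.34, 4.34, 3.53 and 5.67 CPM in LiAM, 10.8 to 27.1 (median 19.5) CPM in Li and 3.48 to 6.83 (median 5.73) CPM in control libraries (-1.94 ± 0.23, adjusted p = 7.2e-05). Its close copy C4a may share reads with it. The fibrinogen chains Fga (-1.08 ± 0.17, adjusted p = 0.00154), Fgb (-1.23 ± 0.25, adjusted p = 0.00926) and Fgg (-2.34 ± 0.42, adjusted p = 0.00401) fell. The complement regulator Cfi (-1.21 ± 0.21, adjusted p = 0.00338) and the copper carrier Cp (-0.86 ± 0.12, adjusted p = 0.000516) fell as well, and Lcn2 is the last of the 7. C4b lost its call with LiAM 2 added (adjusted p = 0.753). Fgg fell below the count filter without Li 2, 3, 4, 5 or 6 and with LiAM 2 added. Fga ranged over 9.48 to 19.8 CPM in LiAM, 27.7 to 47 CPM in Li and 15.9 to 24.1 CPM in control libraries, whereas Fgg was under 3 CPM in all of them.

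Of 16 NF-kB genes, Bcl3 and the adhesion molecule Icam1 fell, and 5 fell without Li 1. All 16 had negative values, 9 of them with an unadjusted p under 0.05 by edgeR, and DESeq2 called 2. Icam1 ranged over 29.6 to 38 CPM in LiAM and 38.7 to 68.6 CPM in Li (-0.68 ± 0.12, adjusted p = 0.00332). The subunits Rela (-0.13 ± 0.07, adjusted p = 0.317) and Nfkb2 (-0.19 ± 0.09, adjusted p = 0.243) did not pass. None of 21 tested chemokines and interleukins passed, for example Cxcl10 (-0.64 ± 0.25, adjusted p = 0.169) and Cxcl1 (-0.82 ± 0.37, adjusted p = 0.253), although 17 of the 21 had negative values. By edgeR 8 of the 21 had an unadjusted p under 0.05, 2 were called lower without Li 1 or without Li 5, and DESeq2 called 2, Ccl21 and Lif, lower.

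Genes of growth arrest did not move together. Cdkn1a, which encodes the cell cycle inhibitor p21, had 93, 97.3, 94.7, 107 and 117 CPM in LiAM, 90.3 to 117 (median 103) CPM in Li and 4.92 to 7.37 (median 5.11) CPM in control libraries. The log2 fold change of LiAM over Li was -0.02 ± 0.10 (adjusted p = 0.933, 95% interval -0.21 to 0.16), while each of these groups was more than 10-fold above control. Cdkn2b, which encodes the inhibitor p15, had 0.419, 0.76, 0.668, 0.589 and 0.446 CPM in LiAM, 1.54 to 3.52 (median 1.91) CPM in Li and 0 to 0.154 (median 0.117) CPM in control libraries (-1.87 ± 0.29, adjusted p = 0.00114). Pmaip1, the apoptosis inducer NOXA, ranged over 2.79 to 4.9 CPM in LiAM, 7.31 to 10.5 CPM in Li and 1.46 to 2.82 CPM in control libraries (-1.10 ± 0.16, adjusted p = 0.000524). Plk2, a stress-induced kinase (-0.93 ± 0.14, adjusted p = 0.000815), and the death receptor Fas (-0.86 ± 0.18, adjusted p = 0.0103) complete the 4 of 20 members of the growth arrest list that fell. Mdm2, a ubiquitin ligase, did not pass (-0.20 ± 0.06, adjusted p = 0.0688). None of 20 cell cycle genes passed, among them Mki67 (-0.05 ± 0.22, adjusted p = 0.941). By edgeR 6 of these 20 had an unadjusted p under 0.05, and DESeq2 called 0.

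**Figure D3:**
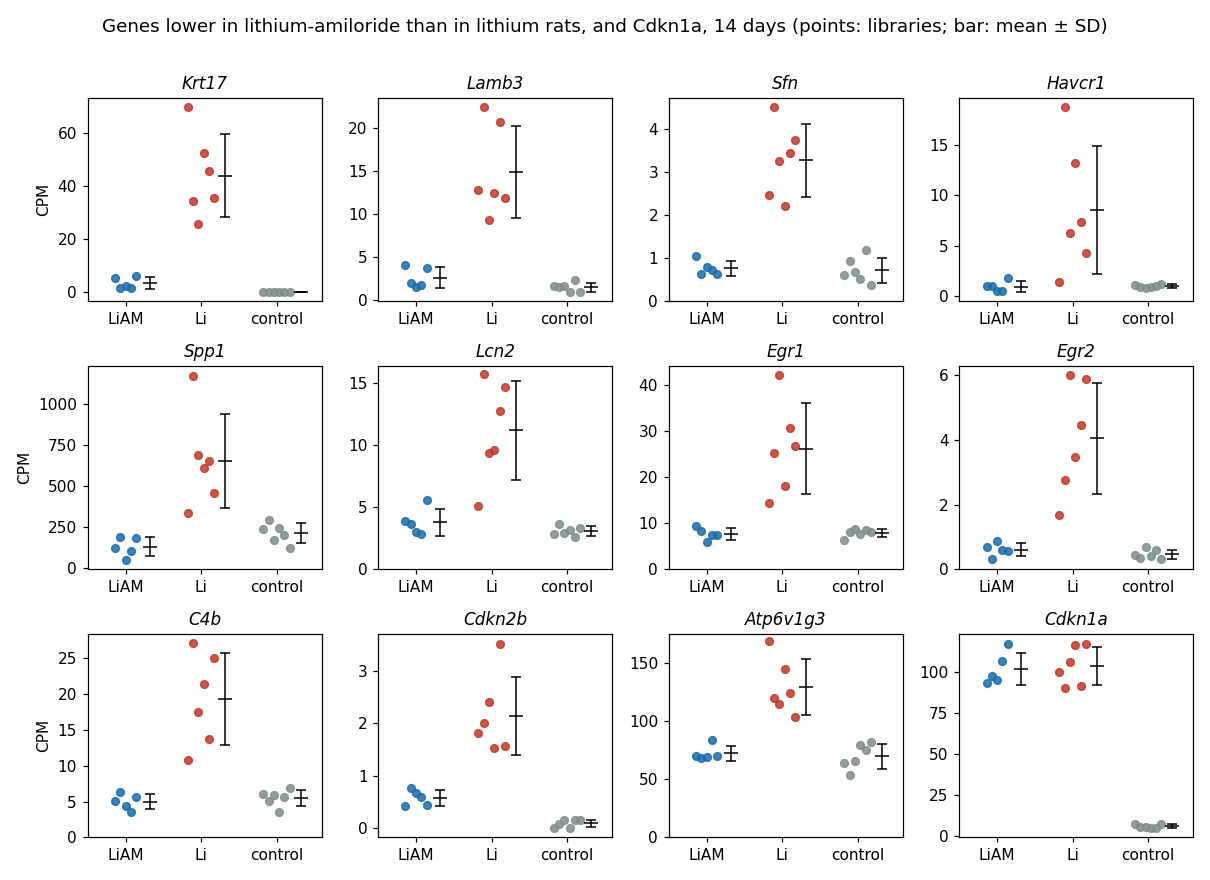
Levels in CPM (vertical axes, linear) of 11 genes that fell in LiAM against Li at 14 days and of Cdkn1a, which did not, 1 point per library for LiAM (blue), Li (red) and control (grey), with the mean and SD beside them. Krt17 lies between 1.37 and 6.18 CPM in LiAM and between 25.7 and 69.4 CPM in Li, while Cdkn1a spans 93 to 117 CPM in LiAM and 90.3 to 117 CPM in Li.

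Of 26 matrix and fibrosis genes tested, 6 fell and none rose, while 1 rose without Li 3, Li 6, LiAM 3 or LiAM 5. Lamb3, Timp1, Postn and Lox were among them. Postn, encoding the matrix protein periostin, was low, at 0.131 to 0.382 CPM in LiAM and 0.195 to 3.42 CPM in Li (-2.65 ± 0.53, adjusted p = 0.00783). With the left-out library LiAM 2 added, its log2 fold change turned to 1.31 (adjusted p = 0.521), and without Li 2, 3, 4, 5 or 6 it fell below the count filter. Lox, a collagen crosslinking enzyme (-0.77 ± 0.20, adjusted p = 0.0388), lost its call in 7 of the 17 fits without 1 library (adjusted p 0.0626 to 0.112). Without Li 6, 3 members of the list fell. The fibrillar collagen Col1a1 averaged 75.3 ± 8.82 CPM in LiAM (SD, n = 5), 74.1 ± 18 CPM in Li and 111 ± 17.3 CPM in control libraries (SD, n = 6 each). Neither Col1a1 (0.02 ± 0.14, adjusted p = 0.959) nor Col3a1 (-0.17 ± 0.13, adjusted p = 0.55) passed. Among 12 metalloproteinase genes, Mmp12 (-1.55 ± 0.36, adjusted p = 0.0233), Adam8 (-0.96 ± 0.17, adjusted p = 0.00338) and Adamts4 (-0.92 ± 0.18, adjusted p = 0.00706) fell. The call of Mmp12, the macrophage elastase, was lost without Li 2 or LiAM 1, 4 or 5 (adjusted p 0.0515 to 0.062).

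In the list of TGF-beta and BMP signalling, 5 of 18 genes fell and 1, the antagonist Grem1, rose. Id1, an inhibitor of helix-loop-helix factors and a classical BMP target, had 30.1, 19.9, 14.2, 12 and 16.1 CPM in LiAM, 33.7 to 52.1 (median 43.4) CPM in Li and 13.6 to 42.4 (median 22.9) CPM in control libraries (-1.23 ± 0.24, adjusted p = 0.0071). Id3 had 35.8, 34.1, 34.6, 33.1 and 32 CPM in LiAM, 59.6 to 78.6 (median 68) CPM in Li and 41.4 to 90.1 (median 54) CPM in control libraries (-1.01 ± 0.14, adjusted p = 0.000524), so that LiAM was below every control library. Id4 (-0.91 ± 0.17, adjusted p = 0.00533) and Id2 (-0.51 ± 0.06, adjusted p = 7.34e-05) fell without overlap of LiAM and Li. Inhbb, a subunit of activin, fell although Li 1 lay within the LiAM range (-1.63 ± 0.41, adjusted p = 0.0347). Only 3 members fell without Li 2, where Id2 was under the fold threshold and Inhbb did not pass. The call of Inhbb was lost in 6 of the 17 fits without 1 library (adjusted p 0.0585 to 0.0963) and that of Id2 also without LiAM 3. Id4 had an adjusted p of 0.051 with LiAM 2 added. Tgfb1 (-0.37 ± 0.12, adjusted p = 0.0928), Tgfb2 (-0.50 ± 0.17, adjusted p = 0.118) and the target Ccn2 (0.13 ± 0.22, adjusted p = 0.821) did not pass.

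Fewer genes of the Wnt, Notch and EGF lists passed. Wnt7a, a Wnt ligand, had 1.47, 0.634, 0.668, 0.458 and 1.21 CPM in LiAM, 2.21 to 4.51 (median 3.3) CPM in Li and 0.0768 to 1.37 (median 1.03) CPM in control libraries (-1.89 ± 0.37, adjusted p = 0.00701). Besides Wnt7a and Myc, the transcription factor Tcf7 (-0.77 ± 0.19, adjusted p = 0.032) fell among 13 Wnt genes, and its call was lost in 7 of the 17 fits without 1 library (adjusted p 0.052 to 0.104). Of 13 Notch genes, the ligand Dll1 fell (4.07 to 6.08 CPM in LiAM, 7.08 to 10.6 CPM in Li, -0.81 ± 0.17, adjusted p = 0.00895), while Notch1 (-0.03 ± 0.11, adjusted p = 0.915) and Jag1 (-0.45 ± 0.19, adjusted p = 0.215) did not pass. Hbegf, a ligand of the EGF receptor, fell in the list of 10 EGF genes beside Epgn (-0.70 ± 0.12, adjusted p = 0.00318).

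Few single genes of immune cells passed the test, and their sums, which were not tested, overlapped between LiAM and Li. Cd3e, a chain of the T cell receptor complex, had 1.89, 2.66, 1.67, 1.5 and 1.4 CPM in LiAM, 3.05 to 6.02 (median 3.61) CPM in Li and 0.668 to 1.89 (median 1.34) CPM in control libraries (-1.14 ± 0.25, adjusted p = 0.0129). The further CD3 chains Cd3d (-1.07 ± 0.39, adjusted p = 0.15) and Cd3g (-0.68 ± 0.33, adjusted p = 0.287) did not pass. Neither did the CD8 chains Cd8a (-0.63 ± 0.20, adjusted p = 0.0874) and Cd8b (-0.70 ± 0.26, adjusted p = 0.147) or the kinase Zap70 (-0.50 ± 0.35, adjusted p = 0.493). All 13 T cell genes tested had negative values, 2 of them past the test (1 without Li 6 or LiAM 1, 4 or 5). Their summed level was 48.4 to 56.3 CPM in LiAM, 53 to 92.1 CPM in Li and 32.8 to 47.3 CPM in control libraries. The 13 macrophage and dendritic cell genes also all had negative values, with sums of 366 to 453 CPM in LiAM, 449 to 598 CPM in Li and 240.3 to 429 CPM in control libraries. Of these, Cd14, a receptor for lipopolysaccharide, fell to 3.44 to 5.94 CPM in LiAM, against 6.66 to 8.57 CPM in Li (-0.66 ± 0.14, adjusted p = 0.0103). Clec9a, a receptor of dendritic cells, was at the edge of the threshold (-1.12 ± 0.30, adjusted p = 0.0499) and lost its call in 13 of the 17 fits without 1 library (adjusted p 0.0515 to 0.146).

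Markers of blood had the same direction in LiAM against Li. Their summed level had its highest median in control libraries, where those of the T cell and macrophage genes had their lowest. None of the 6 red blood cell genes tested passed (0 by DESeq2 too), but all 6 had negative values and an unadjusted p under 0.05 by edgeR. They summed to 200.4 to 260.4 CPM in LiAM, 236 to 826 CPM in Li and 495 to 1637 CPM in control libraries, and their part in the immune transcripts was not tested. The 4 adipose genes tested summed to 72.6 to 121 CPM in LiAM and 89.2 to 171 CPM in Li. All 14 interferon-induced genes tested had negative values, 12 of them with an unadjusted p under 0.05 by edgeR, and DESeq2 called 4. By edgeR, Oasl (-1.22 ± 0.25, adjusted p = 0.0087) and Usp18 (-0.95 ± 0.23, adjusted p = 0.0314) fell. Without Li 4, the Li library with the lowest values of both, 6 fell, and Usp18 lost its call in 7 of the 17 fits without 1 library (adjusted p 0.0513 to 0.0904). In the list for MHC class II, the master regulator Ciita fell (-0.53 ± 0.13, adjusted p = 0.0347), a call lost in 9 of the 17 fits without 1 library (adjusted p 0.0513 to 0.0899).

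Most other cell types of the cortex showed no called gene. None of 10 endothelial, 10 podocyte, 9 thick ascending limb or 9 pericyte and smooth muscle genes tested passed by edgeR. At an unadjusted p under 0.05 there were 2, 2, 1 and 2 of them, and DESeq2 called 1 endothelial and 1 thick ascending limb gene. Without Li 2, Li 6 or LiAM 3, 1 podocyte gene rose. Of 9 fibroblast genes Postn passed, and 1 other rose without Li 3, LiAM 3 or LiAM 5. In intercalated cells, which share the collecting duct with principal cells, 2 of 16 tested genes fell and none rose. The number that fell was 3 without Li 6 or control 2 and 1 without 1 of 11 other libraries, 1 member rose without Li 4, LiAM 1 or control 2, and DESeq2 called 4 members. The sums were 1534 to 1994 CPM in LiAM, 1379.7 to 2042 CPM in Li and 1226 to 1726 CPM in control libraries. Atp6v1g3, a subunit of the vacuolar proton pump, had 70, 68.2, 69.2, 83.7 and 69.7 CPM in LiAM, 103 to 168 (median 122) CPM in Li and 53.2 to 81.5 (median 70) CPM in control libraries (-0.84 ± 0.12, adjusted p = 0.000518), with LiAM within the range of the controls or just above it. Dmrt2, a transcription factor, fell with less margin (-0.70 ± 0.18, adjusted p = 0.0409) and lost its call in 11 of the 17 fits without 1 library (adjusted p 0.0524 to 0.112). The factor Foxi1 (-0.37 ± 0.17, adjusted p = 0.271) and the anion exchanger Slc4a1 (0.60 ± 0.21, adjusted p = 0.118) did not pass.

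Of 16 proximal tubule genes, Slc22a7, an organic anion transporter, fell and no other passed, although 1 rose without Li 4. Slc22a7 had 5.94, 7.42, 3.67, 3.4 and 3.57 CPM in LiAM, 7.01 to 24.3 (median 14.1) CPM in Li and 10.9 to 24.5 (median 16.4) CPM in control libraries (-1.55 ± 0.30, adjusted p = 0.00599). Here Li overlapped control and LiAM was below every control library. Slc38a3, the glutamine transporter that serves ammonia production, had 190.1, 233, 156, 146 and 223 CPM in LiAM, 212 to 442 (median 369) CPM in Li and 279.8 to 352 (median 332) CPM in control libraries (-0.83 ± 0.17, adjusted p = 0.01). Of 19 genes of hypoxia and glycolysis, 2 fell. They were Pfkfb3, an activator of glycolysis (-0.69 ± 0.10, adjusted p = 0.000385), and Angptl4, an inhibitor of lipoprotein lipase (-1.59 ± 0.32, adjusted p = 0.00886). Both lost their calls with LiAM 2 added (adjusted p = 0.784 and 0.999). Kng2, a kininogen, fell (-1.31 ± 0.34, adjusted p = 0.0407) but lost its call in 11 of the 17 fits without 1 library (adjusted p 0.0515 to 0.0941). The amino acid transporter Slc7a8 was higher by just the fold threshold (0.50 ± 0.12, adjusted p = 0.02), and 6 of the 17 fits without 1 library did not call it (adjusted p 0.0433 to 0.0666).

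The genes that fell most by rank also hold some not described above. Acta1, skeletal muscle actin, ranged over 0.0668 to 0.419 CPM in LiAM, 0.773 to 2.76 CPM in Li and 0 to 0.205 CPM in control libraries (-2.67 ± 0.42, adjusted p = 0.00122), and the 3 skeletal muscle genes tested summed to 1.67 to 2.47 CPM in LiAM and 2.64 to 5.88 CPM in Li. Gprc5a, an epithelial orphan receptor (-1.74 ± 0.24, adjusted p = 0.000431), and Atg9b, an autophagy protein (-1.87 ± 0.31, adjusted p = 0.00213), fell. So did Upk3bl1, a relative of the uroplakins (-2.40 ± 0.51, adjusted p = 0.0111), and Scart1, a scavenger receptor (-2.15 ± 0.40, adjusted p = 0.00515). All 4 stood under 8 CPM in every library, and their LiAM and Li values did not overlap. Of the genes that the study singled out, the myofibroblast actin Acta2 (-0.50 ± 0.16, adjusted p = 0.102) and the pericyte receptor Pdgfrb (-0.35 ± 0.11, adjusted p = 0.0869) did not pass. Neither did Ccnd1, encoding cyclin D1 (-0.16 ± 0.12, adjusted p = 0.533), the telomerase gene Tert (-0.16 ± 0.16, adjusted p = 0.648), the kinase Gsk3b (0.12 ± 0.11, adjusted p = 0.63) or the Mdm2 relative Mdm4 (0.13 ± 0.15, adjusted p = 0.71). Of 36 such genes tested, 5 rose and 10 fell. They were picked by the study on these libraries, so this count is no independent evidence.

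**Figure D4:**
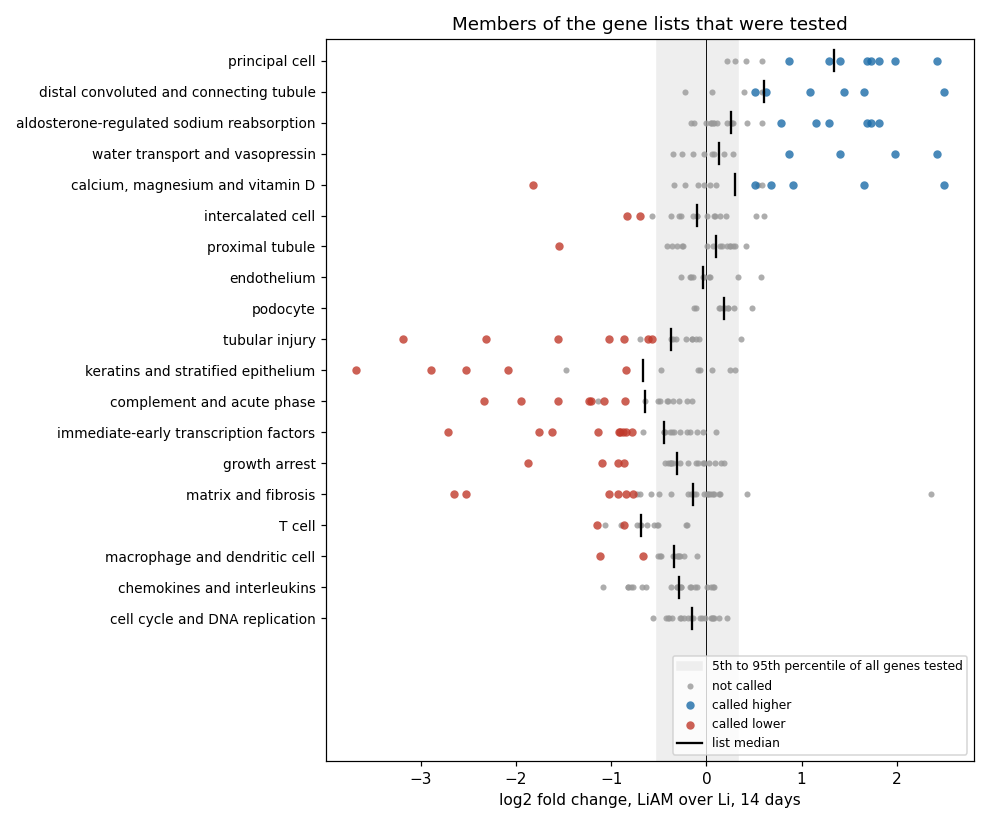
Log2 fold change of LiAM over Li (horizontal axis) of every tested member of 19 gene lists (rows), called members in blue (higher) and red (lower), with the list median as a bar and the 5th to 95th percentile of all genes tested, -0.52 to 0.33, shaded. The medians of principal cell (1.34) and distal convoluted and connecting tubule genes (0.60) lie above the shaded range. Those of keratins (-0.66), complement (-0.64) and T cell genes (-0.68) lie below it. The medians of the other lists lie within it, also where members were called, as for tubular injury (-0.37) and immediate-early genes (-0.44).

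The same comparison was made in the 28-day rats, which are other animals. Fitted on the 28-day libraries alone, 48 genes were higher (0.339% of 14140) and 14 lower (0.0990%) in LiAM than in Li. Of the 112 genes higher at 14 days, 106 had the same sign at 28 days (94.6%), and of the 187 lower genes that were tested at both times 159 did (85%), against 59.9% of all 14012 genes tested at both times. The called genes shared were 36 of the higher, which is 32.1% of the 14-day list and 75% of the 28-day list, and 13 of the lower, which is 6.53% of the 14-day list and 92.9% of the 28-day list. No gene was called in opposite directions.

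The shared higher genes included 7 of the 8 principal cell genes that rose at 14 days. Log2 fold changes at 28 days were 1.68 ± 0.21 for Aqp2, 1.69 ± 0.22 for Scnn1g, 1.53 ± 0.23 for Scnn1b, 1.45 ± 0.18 for Hsd11b2 and 2.18 ± 0.28 for Grem1, each with an adjusted p of 0.00308 or less. Avpr2, Aqp4, Fxyd4, Calb1, Klk1, Slc9a4, Atp2b4, Gdap1, Lrrc31 and Fam3d were also called at both times. Scnn1a (0.74 ± 0.18, adjusted p = 0.0787), Aqp3 (0.60 ± 0.15, adjusted p = 0.118) and Sgk1 (0.68 ± 0.25, adjusted p = 0.347) did not pass at 28 days. Among the 13 shared lower genes were Krt17 (-3.54 ± 0.55, adjusted p = 0.00911), Lamb3 (-1.93 ± 0.23, adjusted p = 0.000777), Id1 (-1.01 ± 0.18, adjusted p = 0.0107), Id3 (-1.07 ± 0.17, adjusted p = 0.0038), Fga, Clu and Atp6v1g3 (-1.21 ± 0.19, adjusted p = 0.0038).

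Several genes that fell at 14 days did not pass at 28 days. Egr1 was at -0.47 ± 0.20 (adjusted p = 0.411), Egr2 at -0.38 ± 0.35 (adjusted p = 0.68), Spp1 at -0.80 ± 0.22 (adjusted p = 0.164), C4b at -0.66 ± 0.28 (adjusted p = 0.406) and Pmaip1 at 0.08 ± 0.17 (adjusted p = 0.869). Fosb, at 1.23 ± 0.71 (adjusted p = 0.511), had the opposite sign to 14 days, as did Pmaip1. The difference between the times was tested in 1 fit over both studies, and 0 of 14525 genes were called (edgeR, smallest adjusted p 0.269), with 1237 genes at an unadjusted p under 0.05. DESeq2 called 2 genes, Pmaip1 and Gatm. The largest differences of the named genes by p were those of Pmaip1 (-1.17 ± 0.23, unadjusted p = 1.86e-05) and Egr2 (-2.34 ± 0.49, unadjusted p = 3.93e-05), and both genes were chosen on their 14-day values. Gatm was called for the difference without Li 3 (adjusted p = 0.0395), and C4b without the 28-day Li library 1 (adjusted p = 0.0317). For Aqp2 the difference was 0.75 ± 0.31 (unadjusted p = 0.0202, adjusted p = 0.512). The time of treatment cannot be told apart from the 2 studies.

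**Figure D5:**
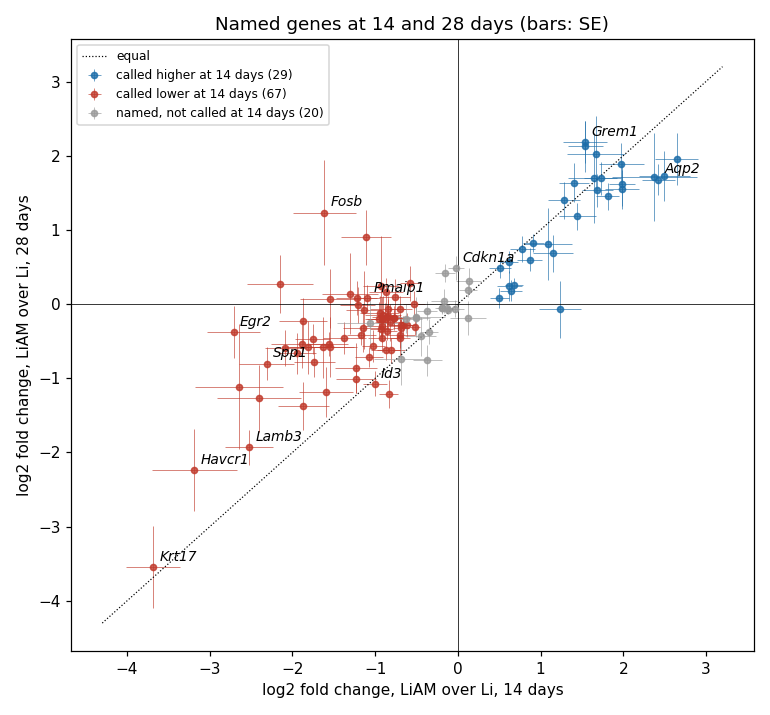
Log2 fold change of LiAM over Li at 28 days (vertical axis) against that at 14 days (horizontal axis) for the 116 named genes tested at both times, with SE bars and a dotted line of equal values. Genes called higher at 14 days (blue) follow the line, Krt17 and Lamb3 lie near it on the lower side, and Egr2, Spp1 and Fosb lie above it.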

How the data were processed

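The authors trimmed reads with Cutadapt, aligned them to Rnor_6.0 with HISAT2 (2.1.0) and summarised exon reads by gene with featureCounts. The submitters' notes give Cutadapt 0.2.6 and featureCounts 2.0.0. The paper's methods give other versions of both. The deposited values used are raw counts for 32545 genes, and the symbols, deposited as other text, come from the authors' comparison tables (9237 genes), whose fold changes and p-values were not used.

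The test was edgeR's quasi-likelihood F test (4.0.16, in R 4.3.3) on counts that passed filterByExpr, with TMM scaling, all 17 libraries of 14 days in 1 fit and p-values adjusted over all 14179 genes. The thresholds for a call were those of the study (0.05 for the adjusted p, 0.5 for the log2 change). Levels are CPM of TMM-scaled totals, and errors of log2 values are SE from the F statistic. p-values measure the spread between the libraries, 1 per rat in the methods. No 2 replicate libraries agreed within counting noise (chi-square per degree of freedom 4.78 to 33.9). The script was checked on simulated data.

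The text names the 15 highest and 15 lowest called genes with a symbol, at least 1 CPM on average and no overlap of libraries, the called members of 53 gene lists, and genes the study discusses, some of which are not reported here. Genes named as not passing or as called at both times that lie outside this rule were chosen after their values were seen. The members and lists were chosen with earlier results of these data known. Alternatives were DESeq2 1.42.0, RLE scaling, no filter, LiAM 2 kept, mitochondrial genes left out, a replicate block, the 11 libraries alone, no fold threshold, each library left out and, added after seeing the data, each control left out. The 6-month study was not used here. Promoters came from RefSeq (GRCr8), with entries for 96 of 120 named genes.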

Additional observations from a re-analysis of the deposited data

Results flagged for a closer look

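In 240 groups of library values (LiAM and Li for each of 120 named genes), 18 held 1 library far from the rest by Dixon's test, which chance alone flags in about 1 of 20. In LiAM, library 1 was far above the others for Sgk1 (430.0 CPM, next 232 CPM), Clu (111 CPM, next 88.3 CPM), Ccn2 (133 CPM, next 81.5 CPM), Hbegf (7.13 CPM, next 5.48 CPM) and Epgn (0.489 CPM, next 0.134 CPM). LiAM 5 was high for Calb1 (678 CPM, next 344 CPM) and Atp6v1g3 (83.7 CPM, next 70.04 CPM), and LiAM 6 for Myc (9.17 CPM, next 6.54 CPM) and Upk3bl1 (0.701 CPM, next 0.262 CPM). LiAM 4 was low for Adam8 (2.003 CPM, next 2.92 CPM), Fosb (0.334 CPM, next 0.764 CPM) and Mdm4 (21.97 CPM, next 26.6 CPM).

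In Li, library 6 was high for Timp1 (18.6 CPM, next 13.7 CPM), Fas (8.15 CPM, next 6.12 CPM) and Tgfb1 (32.5 CPM, next 22.6 CPM). Li 5 was high for Jag1 (65.6 CPM, next 44.9 CPM) and Upk3bl1 (4.33 CPM, next 2.06 CPM), and Li 2 for Angptl4 (16.1 CPM, next 8.01 CPM). In the unused library LiAM 2, adipose genes summed to 2466 CPM, against 124 to 161 CPM in control libraries scaled together with it.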

How the results depend on the processing

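Leaving out 1 library gave 76 (LiAM 5) to 125 genes higher in LiAM and 129 (LiAM 5) to 234 (without Li 4) lower, and 0 to 1 genes for the difference between the times (Gatm without Li 3, C4b without 28-day Li 1). DESeq2 called 299 genes lower and 2 for the difference, and 197 genes were higher with no fold threshold. The other settings kept these counts within 1.5 times. Replicate numbers did not pair the libraries: same-numbered LiAM and Li libraries correlated at -0.019 to 0.086 in their deviations, none best with its own number. With the replicate block, 85 genes were higher, 165 lower and 0 differed between the times. The fit with the block did not call 14 of the 99 named genes called in the main fit. Slc8a1 was 1 of them (adjusted p = 0.0571) and was called in the other settings. With LiAM 2 kept, 15 of the 99 were not called, and Postn changed sign. Of 99 named genes called, 69 kept the call in each of 8 other settings and 17 fits without 1 library in which they passed the count filter. Epgn and Postn left the filter in 5 of these 17 fits each, as did Fgg. Epgn and Fgg also left it with LiAM 2 kept, and Kcne1 with the 11 libraries alone, so these settings did not check their calls. The edgeR fit of both times was not among these settings. In it some 14-day changes did not pass, among them Fos (adjusted p = 0.143), Fosb (0.178), Slc8a1 (0.0677) and Postn (0.0874). Of 21 named genes not called, 18 kept their direction, and none of the 21 became called. Postn turned to 1.31 with LiAM 2 kept, Notch1 to 0.0033 with the replicate block, and without 1 library Notch1 ranged from -0.1211 to 0.0399, Cdkn1a from -0.0782 to 0.0148 and Ccn2 from -0.082 to 0.3435 (log2 fold change). The causes were not tested.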

Other observations

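Gatm, the enzyme that starts creatine synthesis in the proximal tubule, was singled out after its values were seen, as the most abundant gene called in the comparison. It had 3600.0, 3888, 4273, 3667 and 3646 CPM in LiAM, 717 to 2590.0 (median 1102) CPM in Li and 4126 to 4944 (median 4372) CPM in control libraries, with a log2 fold change of 1.37 ± 0.25 for LiAM over Li (adjusted p = 0.00494 by edgeR). LiAM and Li did not overlap, and the Li libraries spread more widely than either other group. At 28 days the log2 fold change in the fit of both times was -0.14 ± 0.24, and the difference between the times was 1.52 ± 0.33 (unadjusted p = 7.42e-05, adjusted p = 0.27 by edgeR).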
